A study of Mus musculus with 2 samples.

Results

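Nuclear receptors are transcription factors that bind small lipid-soluble ligands and switch genes on or off, and in the liver they tie gene expression to hormones, bile acids, sterols, fatty acids, drugs and the time of day. Here 40 receptor genes were chosen by name, matched by Ensembl identifier, out of 43346 Ensembl genes in the deposited tables; other receptors of the superfamily are not analysed here. RNA came from the whole livers of 2 newborn B6NCrl mice, an inbred C57BL/6N strain, taken on postnatal day 0. Both pups came from 1 dam, so they form 1 group of 2 littermates, and neither genotype, treatment nor diet was varied between them. Their sex was not recorded. Each library was made by total RNA-seq from 10 ng of RNA over 200 nt in length, with ERCC spike-in RNAs, and held 42124582 expected counts for pup 1 and 41443673 for pup 2. A gene with no count could still have had up to 3, which is 0.0712 CPM, a count scaled to library size, for pup 1 and 0.0724 CPM for pup 2, by counting error alone.

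A typical receptor carries a DNA-binding domain with a pair of zinc fingers and a ligand-binding domain that recruits coactivators or corepressors. The short stretch at the base of the first finger, the P-box, reads the bases of the hormone response element. Most receptors that pair with RXR, and many that bind alone, read AGGTCA half-sites, whereas the glucocorticoid, mineralocorticoid and progesterone receptors read AGAACA half-sites. Both livers were measured as bulk tissue, so fewer cells of a type and less RNA per cell cannot be told apart.

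The coding DNA of the P-box is shown because it places the receptors in groups by sequence. Different groups can read the same half-site, and which half-site each one reads was not tested. A zinc finger pattern for both fingers was found in a listed transcript of 39 of the 40 members. The exception was Nr0b1, which is known to lack this domain. Each line gives 18 nt, or 6 codons, from 5′ to 3′ in the sense of the gene, copied from GENCODE M21 transcripts on GRCm38, and capitals mark the codons of the residues known to differ between the classes of P-box.
Nr1i3, group of 25 members (chr1:171214460-171214477, plus strand, exon 2): tgtGAGGGCtgcaagGGC
Nr2f6, group of 3 members (chr8:71381035-71381052, minus strand, exon 1): tgcGAGGGCtgcaagAGT
Nr3c2, group of 3 members (chr8:77085627-77085644, plus strand, exon 3): tgcGGCAGCtgcaaaGTC
Esrra, group of 3 members (chr19:6920085-6920102, minus strand, exon 2): tgtGAGGCCtgcaaaGCC
Esr1, group of 2 members (chr10:4746768-4746785, plus strand, exon 4): tgcGAAGGCtgcaagGCT

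Members were grouped by what all 6 codons encode. The group of Nr1i3 held all the thyroid, retinoid, vitamin D, RXR, PPAR, LXR, PXR, CAR, REV-ERB, ROR and NR4A genes, with Nr2c1, Nr2c2 and Nr6a1. Its 25 members used 18 different DNA sequences for the 18 nt and summed to 196.55 ± 4.45 TPM (SD, n = 2), and 17 of them were detected. That was 71.8% of the summed TPM of the 40 members in pup 1 and 70.8% in pup 2. The group of Nr2f6, with Nr2f1 and Nr2f2, reached 44.3 ± 5.47 TPM, and that of Nr3c2, with Nr3c1 and Pgr, 27.0 ± 4.18 TPM. The estrogen-related receptors summed to 6.81 ± 0.573 TPM and the estrogen receptors Esr1 and Esr2 to 1.07 ± 0.212 TPM. Nr2e1, Nr2e3 and Nr5a1 each had a P-box of their own and lay at or near 0. These sums are over whole genes, whose transcripts need not all encode the fingers. Transcripts with both fingers held 24.7% of Nr3c1 TPM in pup 1 and 29.7% in pup 2, and 32.8% and 28.0% of Nr3c2 TPM. For Nr1i3, the highest gene of the group of 25, they held 28.6% and 33.9%.

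The labelled tissue was checked with marker genes. All 5 hepatocyte markers were detected, summing to 95090 TPM in pup 1 and 87941 in pup 2, and 4 of 5 kidney markers had a TPM of 0 in both livers. The library of pup 2 stood apart in markers of other organs. Its 5 striated muscle markers summed to 694.77 TPM against 47.0 in pup 1, its 5 pancreas markers to 96.4 against 1.96, and its 5 lung markers to 16.8 against 2.76. Their part in the results below was not tested, except where values without a library are given.

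Of the 40 receptors, 22 (55%) were detected, meaning a TPM, a level corrected for transcript length and library size, of 1 or more in each liver. Over all Ensembl genes the share was 28.5%, and over protein-coding genes it was 52.9%, so the receptors were detected about as often as protein-coding genes at large. Without pup 1 the count was 23, and without pup 2 it was 22. Together the 40 genes held 275.73 ± 3.52 TPM, or 0.0276% of all TPM, and the 5 highest, Nr1i3, Nr2f6, Nr1h2, Nr1h3 and Nr3c1, held 58.6% ± 0.0777 of that sum. The median detected receptor stood at 5.90 TPM in pup 1 and 5.96 in pup 2, below the median of all detected genes (9.68 and 9.24 TPM). There were 9 receptors at 10 TPM or more in both livers and 13 between 1 and 10 TPM.

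**Figure D1:**
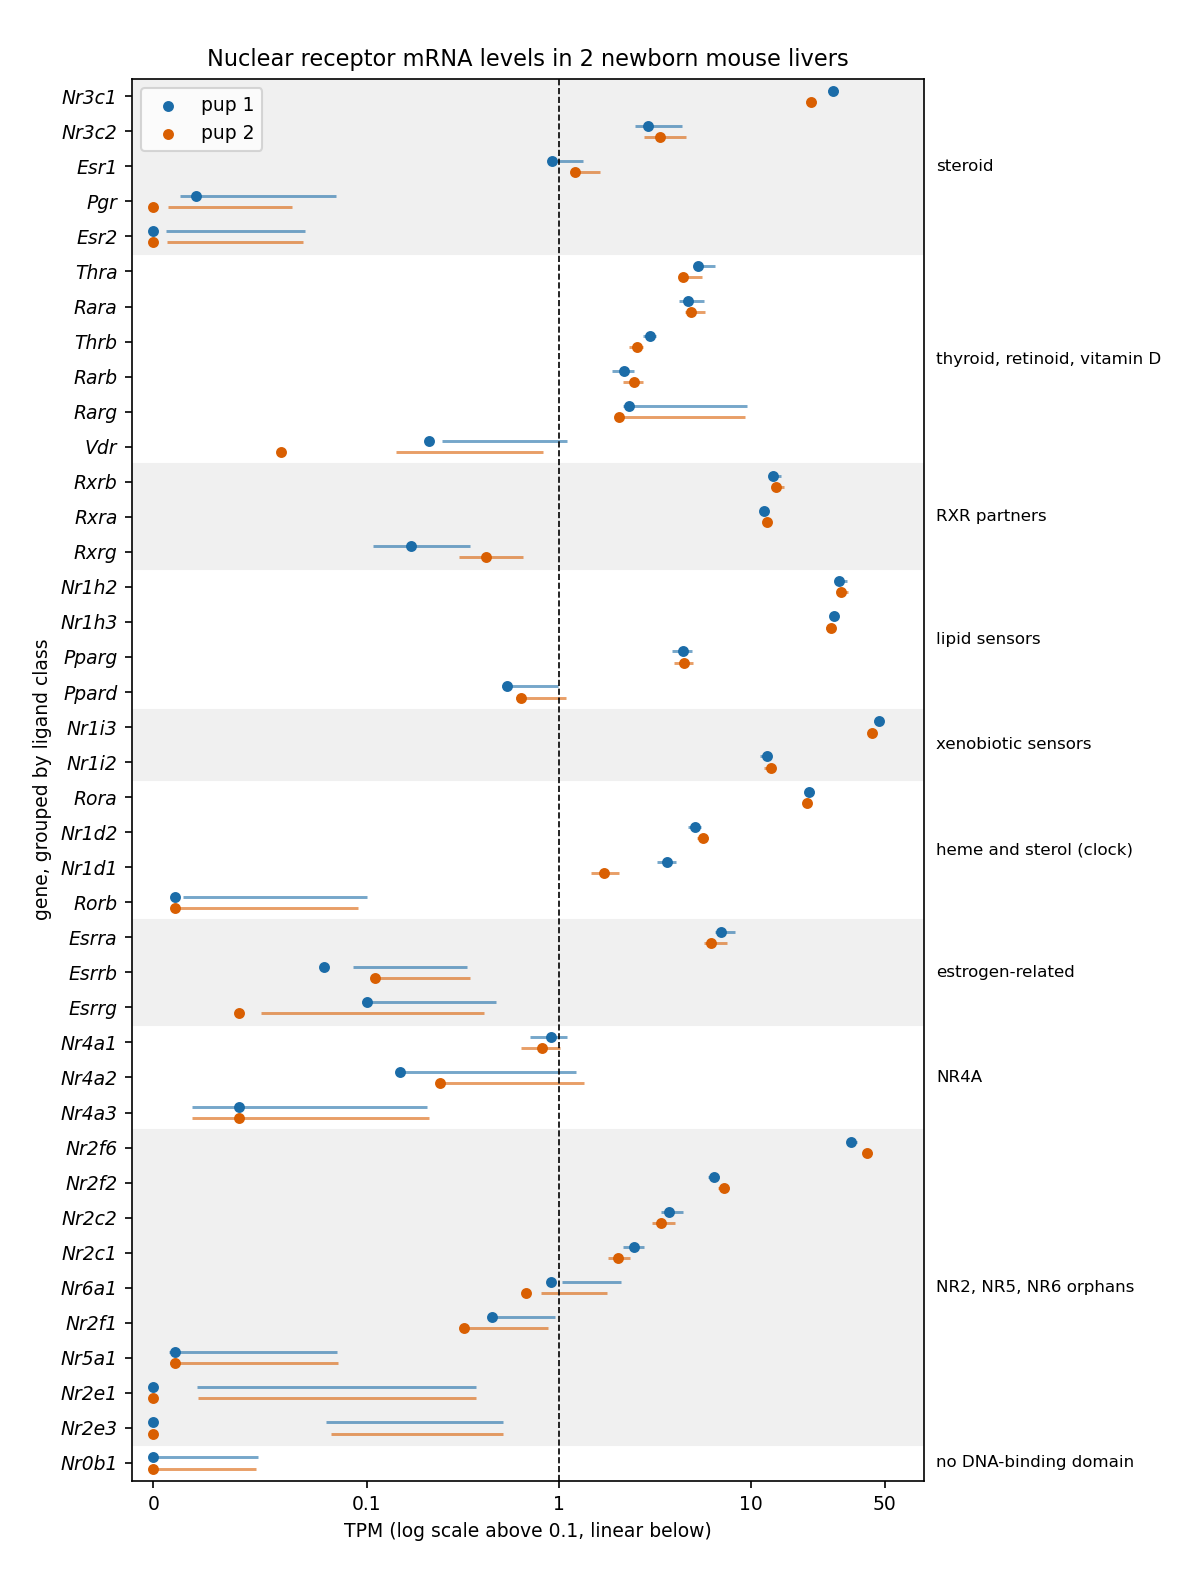
TPM of the 40 receptors in the liver of pup 1 (blue) and pup 2 (orange), grouped by ligand class, on a scale that is logarithmic above 0.1 TPM and linear below; horizontal lines are the authors' credible intervals and the dashed line marks 1 TPM. The highest genes were Nr1i3 and Nr2f6. The intervals belong to a posterior estimate and, for some genes with few or no counts and for Nr6a1, lie above the plotted TPM.

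The receptors fell into an order that both livers largely shared. In the sequence of the 22 detected genes by mean TPM, 12 of the 21 neighbouring pairs had ranges over the 2 livers that did not overlap. Ranges overlapped for Nr1h3 and Nr3c1, for Nr2f2 and Esrra, for Nr1d2, Thra and Rara in turn, and for the run of Nr3c2, Thrb, Nr1d1, Rarb, Nr2c1 and Rarg. By ligand class, the lipid sensors (61.0 ± 0.233 TPM), the xenobiotic sensors (57.1 ± 2.04 TPM) and the orphans of the NR2, NR5 and NR6 subfamilies (50.97 ± 4.76 TPM) were highest. The heme and sterol receptors of the clock (28.1 ± 1.37), the steroid receptors (28.0 ± 3.97), the RXRs (25.5 ± 0.799) and the thyroid, retinoid and vitamin D receptors (17.1 ± 0.898 TPM) followed.

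Among the xenobiotic sensors, Nr1i3 encodes CAR, which switches on drug-metabolizing enzymes in hepatocytes. Nr1i3 (chromosome 1, 171213970 to 171220701) stood at 46.44 TPM in pup 1 and 42.99 in pup 2, the highest level of the 40 genes. Nr1i2 encodes PXR, a broad sensor of drugs and steroids, and stood at 12.14 and 12.71 TPM. The log2 ratio of Nr1i3 over Nr1i2, on TPM + 1, was 1.77 ± 0.12 (SD, n = 2), which is larger than the spread between the livers by the rule used for pairs (both livers on 1 side of 0 and a mean over 3 SD from 0). Annotation limits the value for Nr1i3: 74.9% of its exon bases also lie in exons of Tomm40l on the opposite strand. Its counts were not whole numbers in either liver (3320.77 and 2876.05), while those of the 2 genes together were (3877 and 3409), so reads were divided between them. The labels do not state whether strand was used, so reads of the 2 genes cannot be told apart over the overlap. Transcripts of Nr1i3 that encode both zinc fingers held 28.6% of its TPM in pup 1 and 33.9% in pup 2, against 100% for Nr1i2 in each. They were mainly Nr1i3-202 (9.27 and 10.06 TPM) and Nr1i3-203 (3.99 and 4.52 TPM). The ratio of Nr1i3 over Nr1i2 therefore holds for whole genes and not for these transcripts. The leading transcript, Nr1i3-208 (221 codons), which does not encode both, held 33.8% and 28.9%.

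Of 10 listed CAR and PXR target genes 9 were detected, led by Cyp3a11, a drug-oxidizing cytochrome P450 (594.56 and 745.45 TPM), and by Ugt1a1, the bilirubin-conjugating enzyme (383.49 and 358.95 TPM). Cyp2b10, the classical CAR target in mouse, stood at 3.02 TPM in pup 1 and 5.04 in pup 2, the only listed target apart between the livers by the 1.5-fold rule described below, which 0.999% of all genes passed in that direction.

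The lipid sensors were led by both LXRs, receptors for oxysterols that promote cholesterol efflux and fatty acid synthesis. Nr1h2 (LXR beta) stood at 28.99 TPM in pup 1 and 29.6 in pup 2, and Nr1h3 (LXR alpha) at 27.19 and 26.09 TPM. Nr1h3 was lower in both livers, but the log2 ratio of -0.13 ± 0.061 was not larger than the spread between them. By TPM, Nr1h2 was also the only detected receptor whose leading transcript differed between the livers: Nr1h2-201 led with 32.4% in pup 1 and Nr1h2-203 with 25.3% in pup 2. By posterior mean estimates Nr1h2-201 led in both. All 8 listed LXR targets were detected and none was apart between the livers by the 1.5-fold rule, beside 1.47% of all genes. Lpcat3, a phospholipid-remodelling enzyme, was at 59.97 and 62.69 TPM, and Srebf1, the regulator of lipid synthesis, at 18.55 and 26.74 TPM.

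Pparg, the receptor that drives fat storage in adipocytes, stood at 4.44 TPM in pup 1 and 4.5 in pup 2. All of its TPM was assigned to Pparg-202, whose 475 codons are those of the gamma 1 form. Ppard, a fatty acid sensor of broad expression, stayed below 1 TPM, at 0.54 and 0.64. The log2 ratio of Ppard over Pparg was -1.78 ± 0.053, larger than the spread. Of 8 listed PPAR delta and gamma targets 6 were detected, led by the lipid droplet protein Plin2 (397.3 and 427.97 TPM) and the fatty acid binding protein Fabp4 (99 and 86.59 TPM).

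The RXRs are obligate partners of the lipid, xenobiotic, thyroid and retinoid receptors. Rxrb stood at 13.04 TPM in pup 1 and 13.5 in pup 2, and Rxra at 11.71 and 12.13 TPM. The pair lay close together, with a log2 ratio of Rxra over Rxrb of -0.14 in each liver. Its sign depends on the length correction: with counts divided by the longest listed transcript the ratio was 0.039. Rxra was read almost entirely from Rxra-201 (467 codons; 100% and 98.8%), whereas Rxrb was divided between Rxrb-202 (57.3% and 58.0%) and Rxrb-201 (35.7% and 33.8%).

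Rxrg, the form known from skeletal muscle, brain and pituitary, was not detected, at 0.17 TPM on 9 counts in pup 1 and 0.42 TPM on 24 counts in pup 2. The ratio of counts per depth was 2.71 (95% exact counting interval 1.22 to 6.63), and the credible intervals of the livers overlapped. All 5 muscle markers were higher in pup 2, and the range of their summed level is given above; their part in the Rxrg counts was not tested.

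The thyroid hormone receptors were both detected. Thra stood at 5.31 TPM in pup 1 and 4.42 in pup 2, and Thrb, the main mediator of thyroid hormone action on liver metabolism, at 3 and 2.55 TPM. Thra was higher than Thrb in each liver, with a log2 ratio of 0.63 ± 0.033, larger than the spread. Most of the Thra TPM was not assigned to the hormone-binding form. Thra-201, with the 492 codons of the alpha 2 form that does not bind T3, held 57.6% of Thra TPM in pup 1 and 60.0% in pup 2. Thra-202, with the 410 codons of the T3-binding alpha 1 form, held 34.8% and 35.9%, or 1.84 and 1.58 TPM. The end of Thra-201 overlaps Nr1d1, as described below, so its share depends on how those reads were divided. Thrb-203 (461 codons, the length of the beta 1 form) held 92.7% and 98.7% of Thrb TPM, or 2.79 and 2.52 TPM, so the alpha 1 transcript was lower than the beta 1 transcript in both livers.

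All 3 retinoic acid receptors were detected. Rara stood at 4.7 TPM in pup 1 and 4.9 in pup 2, Rarg at 2.33 and 2.07 TPM, and Rarb, itself a retinoic acid target, at 2.2 and 2.48 TPM. Rara exceeded Rarb by a log2 ratio of 0.80 ± 0.050 and Rarg by 0.86 ± 0.12, both larger than the spread. The ratio to Rarg fell to 0.078 with the posterior mean estimates, where it was within the spread, and the credible interval of Rarg reached 9.63 TPM in pup 1. Rarb shares 57.7% of its exon bases with Top2b on the opposite strand, though the counts of both were whole numbers (230 and 261 for Rarb). Vdr, the vitamin D receptor, was not detected (19 counts in pup 1 and 9 in pup 2), nor was Cyp24a1, its classical target, which had a TPM of 0 in both livers.

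Among the steroid receptors, Nr3c1, the glucocorticoid receptor that induces gluconeogenic enzymes around birth, was the most abundant. Nr3c1 (chromosome 18) stood at 26.98 TPM in pup 1 and 20.65 in pup 2, on 2599 and 2227 counts. The mineralocorticoid receptor gene Nr3c2 stood at 2.93 and 3.37 TPM, and the log2 ratio of Nr3c1 over Nr3c2 was 2.57 ± 0.37, larger than the spread. Both genes were led, by TPM, by transcripts with an incomplete coding region. Nr3c1-208 (1891 nt) held 61.3% and 60.5% of Nr3c1 TPM but 40.57% and 35.98% of its counts, most of which (56.2% and 55.8%) were assigned to the full-length Nr3c1-203 (792 codons). Nr3c2-206 is 612 nt long and held 67.2% and 72.1% of Nr3c2 TPM on 35.87 and 44.66 counts, so the level of Nr3c2 rests largely on the estimate for this short transcript.

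Esr1, the estrogen receptor alpha gene, straddled the detection limit at 0.92 TPM in pup 1 (161 counts) and 1.22 in pup 2 (212 counts). Its leading transcript was the full-length Esr1-204 (599 codons) in both, with 65.3% and 65.1% of Esr1 TPM. Esr2 had no count, and Pgr, the progesterone receptor gene, had 2 counts in pup 1 and 1 in pup 2.

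Of the heme and sterol receptors that act in the circadian clock, Rora was the most abundant at 20.22 TPM in pup 1 and 19.71 in pup 2. RORs activate and REV-ERBs repress through the same response elements. Most Rora TPM (86.9% and 87.6%) was assigned to Rora-202, whose 467 codons are those of the alpha 4 form, and 9.71% in each liver to Rora-201, with the 523 codons of the alpha 1 form. Rorb, the neuronal paralogue, had 1 count in each liver, beside neuron and retina markers of which 0 of 5 were detected. Nr1d2, which encodes REV-ERB beta, stood at 5.16 and 5.67 TPM.

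Nr1d1, which encodes REV-ERB alpha, had the largest difference between the littermates on log2(TPM + 1) among the 23 receptors whose mean TPM reached 1. Ratios of TPM were larger for some receptors with few counts (3.5 for Vdr, 2.5 for Esrrg and 2.47 for Rxrg). Nr1d1 (chromosome 11, 98767932 to 98775333, minus strand) stood at 3.66 TPM in pup 1 and 1.72 in pup 2, on 336.51 and 161.35 counts, with credible intervals of 3.26 to 4.10 and 1.48 to 2.07 TPM. The TPM was 2.13-fold lower in pup 2. The count per depth in pup 2 was 0.486 of that in pup 1 (95% exact counting interval 0.400 to 0.588). The credible intervals of Nr1d2 overlapped between the livers, and its log2 ratio of 0.11 (pup 2 over pup 1) turned to -0.09 with spike-in scaling. The log2 ratio of Nr1d2 over Nr1d1 was 0.40 in pup 1 and 1.29 in pup 2, a mean of 0.85 ± 0.63 that was not larger than the spread. The 3′ ends of Nr1d1 and Thra overlap on opposite strands by 263 nt, and the counts of both were divided. Their summed counts were 746 in pup 1 and 515 in pup 2, 1.43-fold higher per depth in pup 1, so the sum, which does not depend on the division, was also higher in pup 1.

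**Figure D2:**
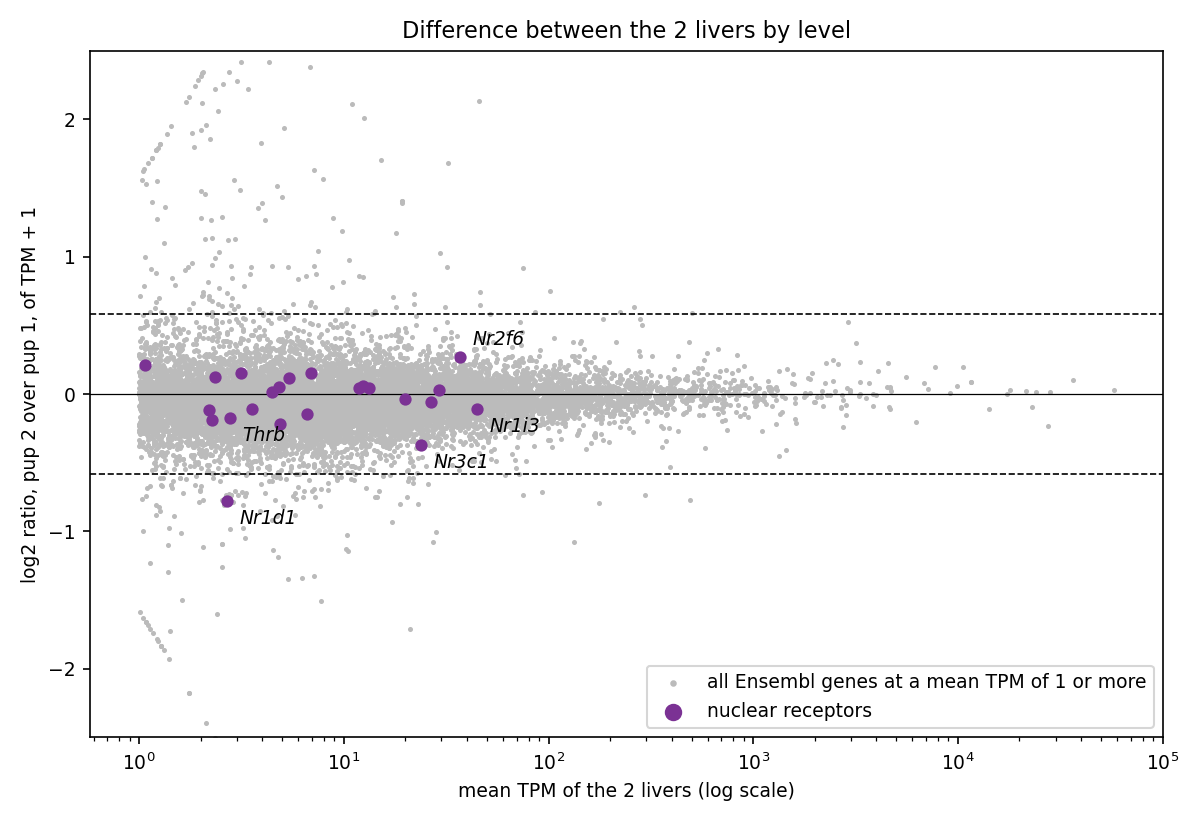
Log2 ratio of pup 2 over pup 1, on TPM + 1, against the mean TPM (log axis) for 12711 genes (grey) and the 23 receptors at a mean TPM of 1 or more (purple); dashed lines mark 1.5-fold, and 41 genes lie outside the plotted range of 2.5. Nr1d1 is the only receptor beyond a dashed line, while Nr3c1 and Nr2f6 are next in size.

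The promoters of both REV-ERB genes are shown because Nr1d1 was the receptor apart between the livers and Nr1d2 is its paralogue. Each is the 250 bases before the RefSeq start on GRCm38.p6, from 5′ to 3′ in the sense of the gene, and capitals mark an AGGTCA half-site on either strand.
Nr1d1 (chr11:98775378-98775627, minus strand): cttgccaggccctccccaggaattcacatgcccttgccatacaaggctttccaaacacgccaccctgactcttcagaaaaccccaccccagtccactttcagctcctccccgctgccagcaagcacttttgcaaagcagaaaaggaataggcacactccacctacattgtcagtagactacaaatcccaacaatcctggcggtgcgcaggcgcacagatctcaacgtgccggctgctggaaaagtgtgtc
Nr1d2 (chr14:18239107-18239356, minus strand): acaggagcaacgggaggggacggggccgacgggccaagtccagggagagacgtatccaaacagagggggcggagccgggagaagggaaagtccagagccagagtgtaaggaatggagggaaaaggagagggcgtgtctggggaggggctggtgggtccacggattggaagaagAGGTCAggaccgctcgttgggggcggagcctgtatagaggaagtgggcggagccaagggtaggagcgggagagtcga

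The Nr1d2 window held 1 AGGTCA, its first base 77 bases before the start. The Nr1d1 window held neither AGGTCA, the E-box CACGTG nor TATAAA on either strand. Only exact matches within these windows were searched. The leading transcript Nr1d1-201 starts 44 bases after the RefSeq start, so the bases just before its own start were not searched. Nr1d2-201 starts 21 bases before the RefSeq start. AGGTCA was found in 14.02% of the 32851 promoters of the same length in the table and in 9 of the 56 promoters of the members (16.1%). CACGTG was found in 6.02% of all and in 4 of the 56, and TATAAA in 12.4% of all and in 6 of the 56. The GC content was 54.8% in the Nr1d1 window and 63.6% in that of Nr1d2, against a median of 52.4%. Promoters were matched for 37 of the 40 members.

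Among the orphan receptors, Nr2f6, a COUP-TF family repressor, was the highest. Nr2f6 (chromosome 8, 71374123 to 71381960) stood at 33.52 TPM in pup 1 and 40.57 in pup 2. Nr2f2 (COUP-TFII), a regulator of venous and mesenchymal cells, stood at 6.48 and 7.3 TPM, and Nr2f1 (COUP-TFI) at 0.45 and 0.32 TPM. The log2 ratio was 2.27 ± 0.083 for Nr2f6 over Nr2f2 and 2.51 ± 0.20 for Nr2f2 over Nr2f1, both larger than the spread. Over 54.4% of its exon bases Nr2f6 overlaps Ocel1 on the opposite strand, and the counts of the 2 genes were divided.

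The testicular receptors were both detected, Nr2c2 (TR4) at 3.75 TPM in pup 1 and 3.4 in pup 2 and Nr2c1 (TR2) at 2.48 and 2.05 TPM. They pair with each other in the erythroid repression of embryonic and fetal globin genes. Nr2c1 was lower than Nr2c2 in each liver, by a log2 ratio of -0.49 ± 0.056, larger than the spread, though 38.6% of the exon bases of Nr2c2 also lie in Mrps25. All 5 erythroid markers were detected in both livers. Nr6a1, the germ cell nuclear factor gene, was below 1 TPM in both (0.91 and 0.68), on 165 and 122 counts. Its credible intervals lay above these values, at 1.04 to 2.11 TPM in pup 1 and 0.81 to 1.79 in pup 2. Calling Nr6a1 not detected therefore depends on which estimate is used. Its leading transcript changed from Nr6a1-202 in pup 1 to Nr6a1-210 in pup 2.

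Esrra, the estrogen-related receptor that drives mitochondrial genes, stood at 7.03 TPM in pup 1 and 6.25 in pup 2. Its paralogues Esrrb and Esrrg were at 0.11 TPM or less. All 6 listed targets, 1 of which is Esrra itself, were detected. They were led by the ATP synthase subunit gene Atp5b (1641.95 and 1571.71 TPM) and the fatty acid oxidation gene Acadm (234.5 and 248.72 TPM). None was apart between the livers by the 1.5-fold rule, beside 1.47% of all genes.

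The receptors not detected in both livers numbered 18, of which 14 had counts in at least 1 liver and 4 had none. The immediate-early gene Nr4a1 was closest to the limit with Esr1, at 0.91 TPM (77 counts) in pup 1 and 0.82 TPM (70 counts) in pup 2. Its paralogues Nr4a2 and Nr4a3 stood at 0.15 and 0.24 TPM and at 0.04 TPM in each liver. Nr5a1, the steroidogenic factor of adrenal and gonad, had 1 count in each liver, and Nr0b1, its repressor, had none. In the adrenal marker list 1 of 5 genes was detected, Hsd3b1 at 50.55 TPM in pup 1 and 47.66 in pup 2. Cyp11a1 (32 and 27 counts) and Star (24 and 28 counts) had reads, and Cyp11b1 had a TPM of 0 in both livers. Nr2e1 and Nr2e3, receptors of the brain and retina, also had no count, as did Esr2. At this depth each of these is limited to 3 counts per library.

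**Figure D3:**
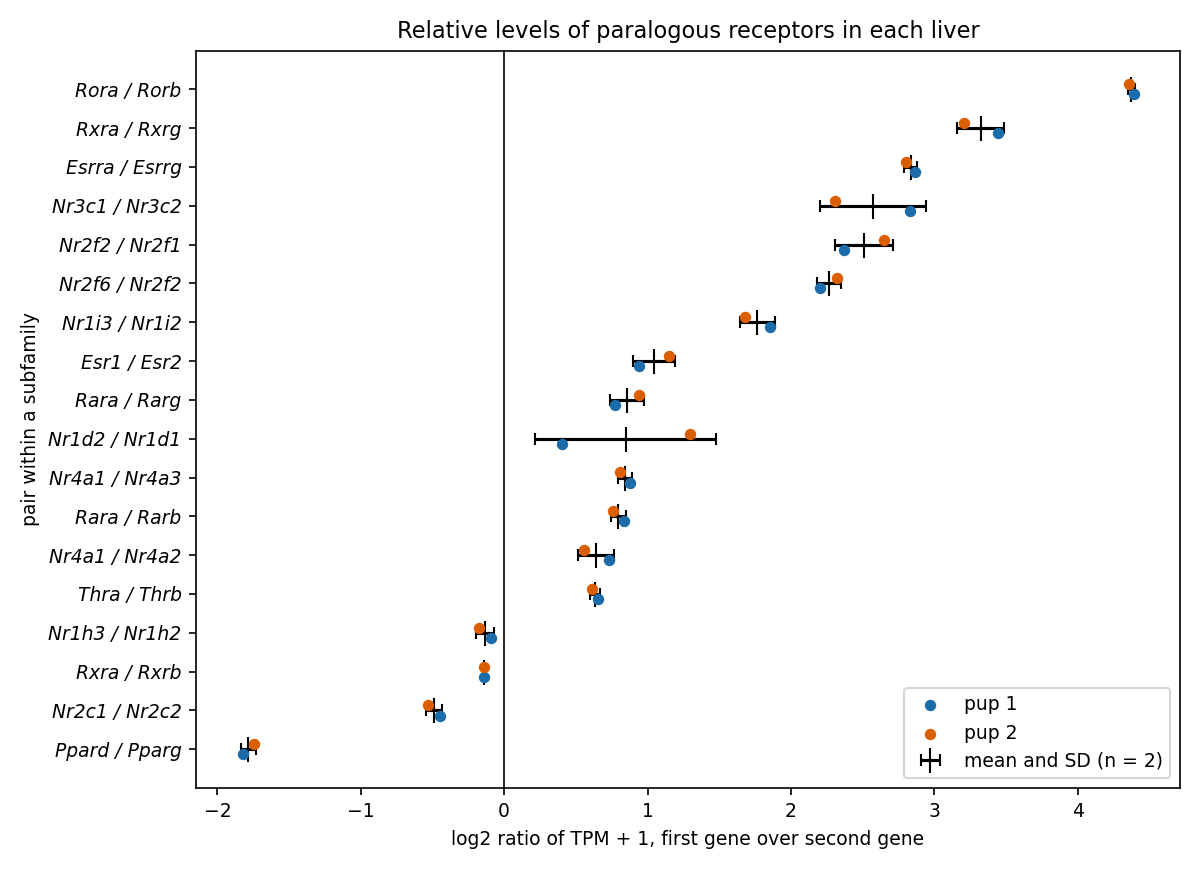
Log2 ratio of TPM + 1 within 18 pairs of paralogous receptors, with a dot for each liver and the mean and SD (n = 2) in black. The mean is over 3 SD from 0 in 16 pairs, from Ppard over Pparg at -1.78 to Rora over Rorb at 4.38; the exceptions are Nr1d2 over Nr1d1 and Nr1h3 over Nr1h2.

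Paralogues kept their order in both littermates. Of 18 pairs fixed within subfamilies, 16 had a log2 ratio larger than the spread, and the sign was the same in each liver in all 18. The share of other gene pairs that would pass the same rule was not computed, so the count is not a trait of receptors. Pairs with a member near 0 (Rora over Rorb at 4.38 ± 0.025, Rxra over Rxrg at 3.33 ± 0.16, Esrra over Esrrg at 2.83 ± 0.047) depend on the added 1 TPM. It shrinks their ratios and also the differences of the low member between the livers. Esr1 over Esr2, Nr2f2 over Nr2f1, Ppard over Pparg and the Nr4a1 pairs also held a member that was not detected. With 2 livers an exact two-sided sign permutation cannot go below 0.5, so no p-value is given.

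The leading transcripts were largely the same in both livers. The tables listed 216 transcripts of the members. Of 36 receptors with reads in both livers, 31 had the same leading transcript in both livers, and so did 21 of the 22 detected. The share over all genes was not computed. For Nr1i2, Rarb and Nr4a1 only 1 transcript was listed, so theirs could not differ. Nr5a1 had 1 count in each liver, and Nr4a3 had 2 in pup 1 and 1 in pup 2. The leading transcript held 80% or more of the TPM in both livers for 12 detected receptors, and under 50% in both for Nr1h2 and Nr1i3. For 19 of the 22 it also led by counts, the exceptions being Nr3c1, Nr3c2 and Rara. It encoded both zinc fingers for 19 of the 22, the exceptions being Nr3c1, Nr3c2 and Nr1i3.

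**Figure D4:**
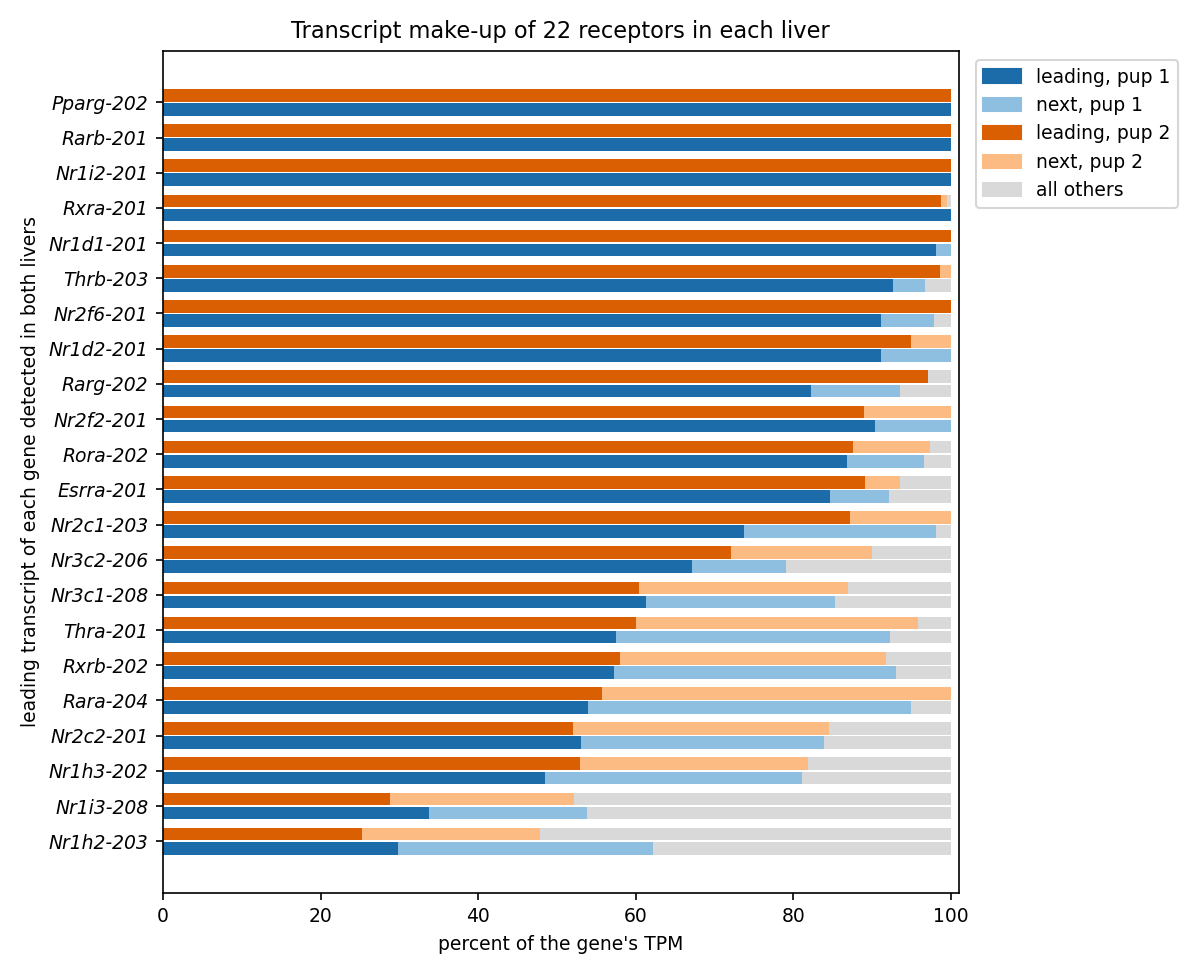
Percent of each gene's TPM assigned to its leading transcript by mean of both livers (dark), the next transcript (light) and all others (grey), for the 22 detected receptors in pup 1 (blue) and pup 2 (orange). Pparg, Rarb and Nr1i2 were assigned to 1 transcript alone, while Nr1i3 and Nr1h2 were divided among many.

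Between the livers the receptors varied about as much as other genes. Each ratio divides pup 2 by pup 1 on log2(TPM + 1), where low genes appear to differ less than they do, and compares 2 animals with no replicate check. Of the 23 receptors whose mean TPM reached 1, 12 were higher and 11 lower in pup 2, whereas 63.0% of all such genes were lower. Their median log2 ratio was 0.016 and their median absolute ratio 0.117, beside -0.05 and 0.114 over all 12711 such genes. By the 1.5-fold rule, which also requires that the authors' credible intervals do not overlap, only Nr1d1 was apart (log2 ratio -0.78), beside 1.47% of all genes in either direction, 0.999% higher and 0.472% lower in pup 2. With 1 TPM added, no receptor passed the same rule at 2-fold (with 0.1 TPM added, Nr1d1 was at -1.05), beside 0.629% of all genes, 0.566% higher and 0.0629% lower in pup 2.

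Without a minimum fold, the credible intervals of 4 of the 23 (17.4%) did not overlap, beside 20.1% of all genes (13.8% lower in pup 2). They were Nr1d1, Nr3c1 (-0.37), Thrb (-0.17) and Nr2f6 (0.27). For Nr3c1 and Nr2f6 the size depends on the unit, TPM or counts, as well as on the scaling. Counts per depth, without TMM, gave ratios of pup 2 over pup 1 of 0.871 for Nr3c1 and 1.30 for Nr2f6. By TPM, Nr3c1 was 1.31-fold lower and Nr2f6 1.21-fold higher in pup 2. Going from TPM to TMM-scaled counts moved the median of all genes by only 0.057. Nr3c1 was at -0.16 by counts scaled with TMM and at -0.60 with spike-in scaling, where it passed the 1.5-fold rule. Nr2f6 was at 0.40 by TMM-scaled counts and at 0.03 with spike-in scaling, which lowers the median of all genes by 0.21.

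Most listed coregulator and chaperone genes were detected, beside 52.9% of protein-coding genes and 28.5% of all Ensembl genes. Of 14 coactivator genes measured all were detected, with Ncoa4 (119.75 and 105.93 TPM) and the Mediator subunit Med1 (14.2 and 13.03 TPM) highest. Ppargc1a, the PGC-1 alpha coactivator of fasting metabolism, was the only coactivator apart between the livers, at 6.08 TPM in pup 1 and 3.64 in pup 2. By the 1.5-fold rule 0.472% of all genes were lower in pup 2. Of 10 corepressor genes 9 were detected, led by Ncor1 (45.46 and 41.83 TPM) and Gps2 (42.77 and 40.05 TPM). None was apart, beside 1.47% of all genes in either direction. All 6 chaperone genes were detected, with the HSP90 genes Hsp90ab1 (382.97 and 356.84 TPM) and Hsp90aa1 (215.84 and 196.86 TPM) highest.

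Of 18 genes for enzymes that make or break down ligands, 9 were detected. Hsd11b1, which regenerates active glucocorticoid, stood at 221.81 TPM in pup 1 and 224.59 in pup 2, whereas Hsd11b2, which inactivates it, was at 0.11 and 0.03 TPM. Akr1d1, a bile acid synthesis enzyme, was at 67.55 and 72.18 TPM. Dio1, which activates thyroid hormone, was at 9.08 TPM in pup 1 and 5.23 in pup 2. It was apart by the 1.5-fold rule, beside 0.472% of all genes in that direction.

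Target genes of the glucocorticoid receptor were lower in pup 2 in 8 of 10 cases, with a median log2 ratio of -0.29. Over all genes 63.0% were lower in pup 2 and the median was -0.05. All 5 bile duct markers were also lower in pup 2 (median log2 ratio -0.39, summed level 104.89 TPM in pup 1 and 75.55 in pup 2, none at 0), and their part in the result was not tested. The list was led by Pck1, the gluconeogenic enzyme, and Lcn2 (367.87 and 357.68 TPM). By the 1.5-fold rule 3 of the 10 were lower, beside 0.472% of all genes: Pck1 (617.24 and 360.8 TPM), Tat, an amino acid catabolic enzyme (94.44 and 56.38 TPM), and the clock gene Per1 (7.05 and 2.53 TPM). The list was chosen with earlier results of these libraries known, so its excess over all genes is not an independent result. Of the thyroid hormone targets, 4 had a mean TPM of at least 1 and all 4 had a log2 ratio below 0, beside 63.0% of all genes. The most abundant were Klf9 (16.24 and 11.99 TPM), which is on both lists, and the NADPH-producing Me1 (8.88 and 6.7 TPM). Dio1 had the lowest log2 ratio, -0.69, and alone passed the rule. Of 8 retinoic acid targets, which include the receptor gene Rarb, 4 were detected and none was apart, beside 1.47% of all genes. Tgm2, a transglutaminase gene, stood at 52.36 and 38.69 TPM.

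Of 8 REV-ERB and ROR targets 6 were detected. G6pc, the glucose-releasing phosphatase, was highest, at 181.09 TPM in pup 1 and 85.23 in pup 2, and E2f8 was next at 11.38 and 11.15 TPM. G6pc was apart by the 1.5-fold rule, beside 0.472% of all genes lower in pup 2. Arntl, the BMAL1 gene that REV-ERBs repress, stood at 5.48 TPM in pup 1 and 7.14 in pup 2, and did not pass the rule. Of the 6 targets, 4 were higher and 2, with G6pc, lower in pup 2, with a median log2 ratio of 0.11. Over all genes 36.6% were higher in pup 2. Whether the level of Nr1d1 has a part in these values was not tested. Arntl, Hsd11b2 and Cyp24a1 were chosen for mention after their values were seen. These lists do not measure receptor activity, and members were chosen with earlier results of these libraries known.

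**Figure D5:**
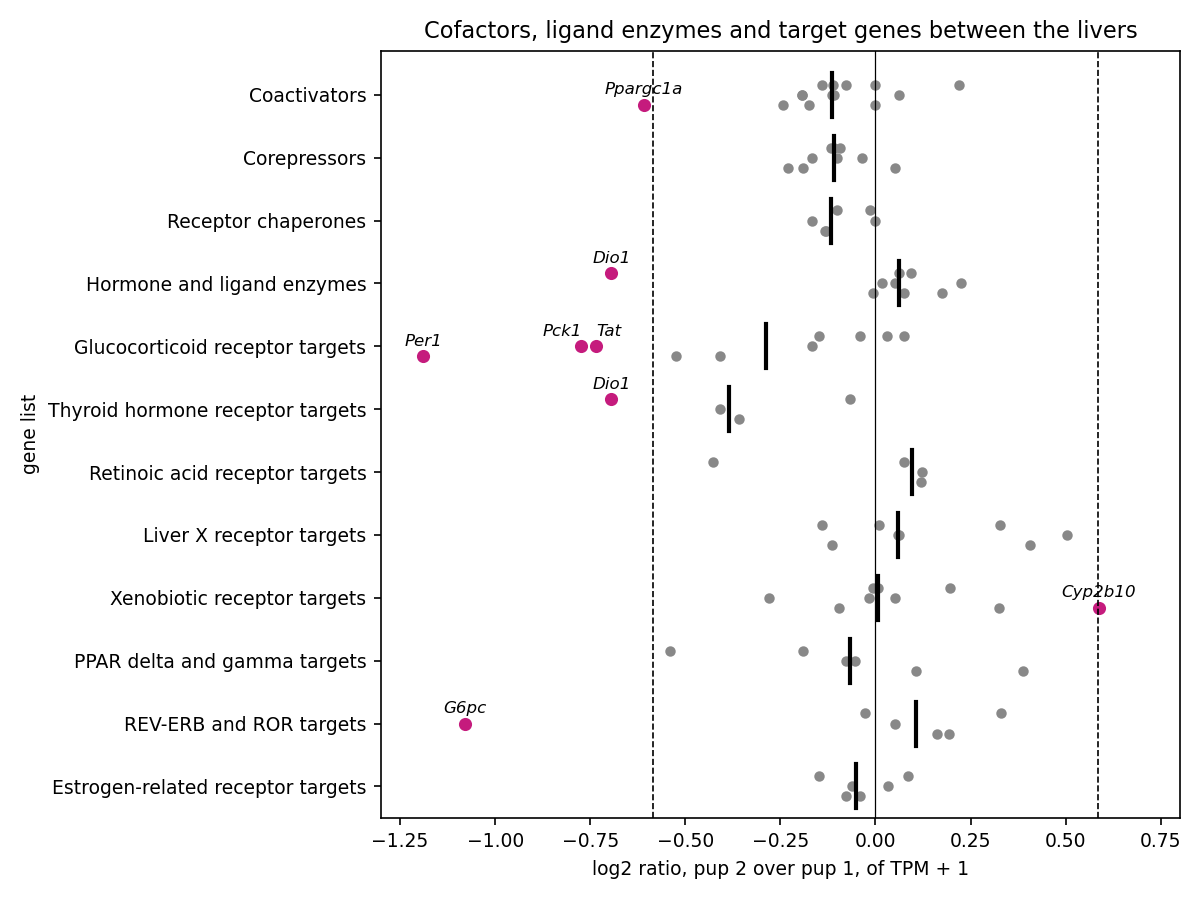
Log2 ratio of pup 2 over pup 1, on TPM + 1, for genes of 12 lists at a mean TPM of 1 or more, with a dot for each gene and a black bar at the list median; pink, named dots passed the 1.5-fold rule, whose fold is marked by dashed lines. Per1, Pck1, Tat, G6pc, Dio1 and Ppargc1a were lower in pup 2 and Cyp2b10 was higher.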

How the data were processed

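Expected counts, TPM and FPKM per gene were deposited by the authors for each liver, as estimated counts in which a read matching several genes is divided among them. For transcripts, the authors deposited the percent of the gene's TPM that each one takes. Credible intervals of TPM are theirs too, at a level that is not stated. Notes deposited beside the tables name mm10 and GENCODE M4; for the aligner and counter, none is given in the sources used here. Names and coordinates came from GENCODE M21 on GRCm38, by identifier.

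The 40 members, the pairs and the gene lists were chosen with earlier results of these data known. All 40 members are accounted for; of the 12 lists of cofactors, enzymes and targets, the 2 highest genes and each gene apart between the livers are named, except 1 gene that is not reported here. The coactivator Prmt1 is not analysed here. Every count of listed genes detected stands beside 52.9% of protein-coding genes and 28.5% of all Ensembl genes. With 1 group of 2 littermates, levels are the mean and SD over the livers and no test was made between conditions. Genes counted as apart between the livers at 1.5-fold on log2(TPM + 1), a mean TPM of 1 or more and non-overlapping credible intervals. Zinc finger patterns were searched in translated transcripts. TMM factors came from edgeR 4.0.16 in R 4.3.3, on expected counts rounded to whole numbers; other steps used Python 3.11.15, pandas 2.3.3, numpy 2.4.6, scipy 1.17.1 and matplotlib 3.10.9. Alternatives changed the pseudocount, scaling, unit, detection limit, fold and the liver left out. Intervals cover counting error only.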

Additional observations from a re-analysis of the deposited data

How the results depend on the processing

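The number of detected receptors ranged from 21 to 29 over its alternatives, against 22, all within 1.5 times. Their share of TPM was 0.0284% with posterior mean TPM, 0.0352% without globin, mitochondrial and 7SL genes and 0.0587% of expected counts, against 0.0276%. Without either liver it was 0.0273% to 0.0278%. The median receptor was at 2.498 TPM with posterior mean estimates and at 5.93 TPM over detected receptors, against 2.23, and at 2.06 to 2.41 TPM without either liver. The count of receptors apart between the livers was 1 (Nr1d1) except with spike-in scaling, which gave 2 (Nr1d1 and Nr3c1), and at 2-fold, which gave 0. The median log2 ratio was 0.070 by TMM-scaled counts and -0.21 with spike-in scaling, under which 21 of 23 receptors were lower; the spike-ins held 163 and 190 counts. The Nr1d1 ratio lay between -1.05 and -0.72 under the other pseudocount, scalings and units and was -0.51 for Nr1d1 and Thra counts summed, an alternative chosen after seeing the data. For the 22 other receptors, 93 of 110 alternatives stayed within the counting interval, and 15 of the 17 outside it were spike-in scaling. Of 90 alternatives of single pair ratios, 86 kept their call: Rxra over Rxrb turned to 0.039 by counts per longest transcript, Rara over Rarg and Nr4a1 over Nr4a2 came within the spread with posterior means, and Nr1h3 over Nr1h2 passed it by counts per longest transcript. The same leading transcript was found for 33 receptors by posterior means, against 31. No paired analysis was possible because there is 1 group. Depth limits the receptors below 1 TPM.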
